A study of Mus musculus with 24 samples.

Results

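Foxf1, Foxf2, Foxd1, Foxd2, Foxc1, Foxc2, Foxl1 and Foxl2 are forkhead genes grouped here as genes of the facial mesenchyme, and they were followed through the jaws of mouse embryos at embryonic day 12.5. They were chosen by symbol, 8 of the 18193 genes that the array measures with a probe set of 1 gene symbol. All 8 passed the filter on low values that left 13837 genes for testing. The 8 genes have 13 probe sets in all, and the brightest probe set of each gene, by its mean over 24 arrays, was used.

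Knockout embryos lacked Alk5, the TGF-beta type I receptor that the gene Tgfbr1 encodes, in cells marked by Wnt1-Cre, and control embryos were their littermates. Wnt1-Cre acts in the neural crest, so epithelium, muscle, endothelium and blood keep the receptor. The floxed alleles came from a cross in which every embryo carries at least 1 of them, and the genotype of each control is not given in the sources used here. Mutants were picked out by their cleft palate and skull vault defect, and the strain label is C57B6. Each mandible and each maxilla was divided into a distal and a proximal end, which gave 4 parts with 4 knockout arrays (numbers 1 to 4) and 2 control arrays (numbers 1 and 2) each. The labels do not say which samples came from separate embryos, so the p-values reflect only how these samples spread, which may be technical. With few arrays per group, precision is limited.

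Forkhead proteins bind DNA through a winged-helix domain and act as transcription factors. In the facial primordia of the mouse, Hedgehog ligand from the epithelium is received by the neighbouring neural crest mesenchyme, where Foxf1, Foxf2, Foxd1 and Foxd2 are among the genes it maintains. Foxf2 is required for palate closure, Foxc1 and Foxc2 act in skull, meningeal and vascular mesenchyme, Foxl1 is a Hedgehog-responsive gene of gut mesenchyme, and Foxl2 is known from the ovary and the eyelid.

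Promoter windows from RefSeq on build GRCm38.p6, 300 bases long and mostly upstream of the annotated start, were matched for 5 of the 8 genes: Foxf2, Foxd1, Foxd2, Foxc1 and Foxl2. Printed here are Foxd1 (chr13:98353995-98354294, plus strand), Foxd2 (chr4:114908849-114909148, minus strand) and Foxf2 (chr13:31625566-31625865, plus strand), whose jaw differences shared a sign within each array set, and Foxl2 (chr9:98955357-98955656, plus strand), whose jaw difference ran otherwise. Capitals mark the SMAD-binding element CAGAC.

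Foxd1: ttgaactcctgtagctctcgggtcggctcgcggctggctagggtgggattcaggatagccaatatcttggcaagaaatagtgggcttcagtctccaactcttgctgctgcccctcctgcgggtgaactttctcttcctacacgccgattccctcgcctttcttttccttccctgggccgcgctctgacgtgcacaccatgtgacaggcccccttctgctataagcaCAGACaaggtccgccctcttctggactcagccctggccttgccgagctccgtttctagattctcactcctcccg
Foxd2: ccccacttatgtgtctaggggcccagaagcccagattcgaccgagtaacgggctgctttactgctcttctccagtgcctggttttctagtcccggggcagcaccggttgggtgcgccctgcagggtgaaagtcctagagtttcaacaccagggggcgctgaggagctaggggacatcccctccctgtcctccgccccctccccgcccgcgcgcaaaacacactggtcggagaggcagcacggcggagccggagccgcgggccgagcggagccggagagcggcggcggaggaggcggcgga
Foxf2: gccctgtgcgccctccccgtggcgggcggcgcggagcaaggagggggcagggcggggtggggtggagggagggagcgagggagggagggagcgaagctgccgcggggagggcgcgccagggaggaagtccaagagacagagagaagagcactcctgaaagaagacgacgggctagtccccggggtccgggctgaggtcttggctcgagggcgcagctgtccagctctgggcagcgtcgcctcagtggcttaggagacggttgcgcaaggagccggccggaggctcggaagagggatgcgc
Foxl2: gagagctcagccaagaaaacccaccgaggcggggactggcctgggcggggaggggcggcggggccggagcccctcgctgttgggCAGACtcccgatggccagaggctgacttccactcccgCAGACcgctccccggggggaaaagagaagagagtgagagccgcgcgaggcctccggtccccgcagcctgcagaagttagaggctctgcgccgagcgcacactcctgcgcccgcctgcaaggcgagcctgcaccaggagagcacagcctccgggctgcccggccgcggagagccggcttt

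The letters were searched on both strands, and no searched motif overlapped another in the printed windows. The element CAGAC, or its reverse complement, was found once in Foxd1 and 2 times in Foxl2, and 49.6% of 32851 mouse promoter windows of the same length hold it. The Hedgehog-pathway GLI core CCACCCA, which 9.30% of windows hold, the forkhead site GTAAACA, which 3.65% hold, and the TATA box TATAAA, which 13.6% hold, were in none of the 5 windows. GC content was 57.7% for Foxd1, 67.7% for Foxd2, 71.3% for Foxf2 and 71.3% for Foxl2, against a median of 52.7% over all windows.

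Facts about the arrays bear on what follows. The arrays fell into 3 sets of 8: knockouts numbered 1 and 2, knockouts numbered 3 and 4, and controls. For the control transcripts Gapdh and beta-actin, the excess of 3' over 5' signal, which grows when RNA is degraded or labelling is incomplete, was 1.13 ± 0.28 (log2, SD, n = 8) in knockouts 1 and 2, 0.08 ± 0.06 in knockouts 3 and 4 and 0.18 ± 0.04 in controls. No set holds both genotypes, so genotype and array set cannot be told apart. The control numbered 2 went against its end labels in the mandible, and less clearly in the maxilla. Its distal minus proximal difference over 13837 genes correlated at -0.56 in the mandible and -0.29 in the maxilla with the knockout mean, whereas that of control 1 correlated at 0.48 and 0.47. Each knockout correlated with the mean of the other knockouts at 0.43 to 0.62 in the mandible but only 0.05 to 0.43 in the maxilla. Results on ends and on single parts are therefore given for the library labelled control 2 apart from control 1. Tgfbr1 itself had a median of 12.37 (range 12.07 to 12.64, log2) in knockouts 1 and 2, 12.47 (12.32 to 12.52) in knockouts 3 and 4 and 12.34 (11.98 to 12.69) in controls. Whether its probe set lies in the deleted part is not given in the sources used here, so this level does not check the genotype labels. All 6 facial mesenchyme markers, among them Prrx1, Twist1 and Msx1, were above the filter level on all 24 arrays, and the 4 mandible markers Hand2, Dlx5, Dlx6 and Dlx3 were all higher in the knockout mandible than in the knockout maxilla past the threshold. The mean of the 5 maxilla and frontonasal markers measured did not separate the jaws in every set. It was 7.71 to 8.39 in the mandible and 9.72 to 10.11 in the maxilla of knockouts 1 and 2. In knockouts 3 and 4 it was 8.11 to 10.38 and 9.72 to 10.49, and in controls 8.03 to 10.51 and 9.41 to 10.66. The distal mandible averaged 10.24 in knockouts 3 and 4 and 7.81 in knockouts 1 and 2.

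Levels are log2 values from RMA (a method that background-corrects, normalizes and summarizes the probes of each probe set), and a difference of 1 is a 2-fold change. Foxd1 was between 8.22 and 11.77 over the 24 arrays, Foxc1 between 7.35 and 11.90, Foxc2 between 7.60 and 11.27, Foxf1 between 6.86 and 10.77, Foxl2 between 7.58 and 11.01, Foxd2 between 7.33 and 10.14 and Foxf2 between 6.32 and 10.06. Foxl1 was between 5.87 and 6.70, above the filter level of 6.07 on 16 of 24 arrays, so little can be read from it. Levels of different probe sets are not comparable, and only differences within a gene are compared. Jaw and array set together accounted for 79.7% of the variance of Foxd2 over the 24 arrays, 64.6% for Foxf2, 60.8% for Foxd1 and 61.2% for Foxl2, and the share was lowest among the 8 for Foxc2.

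**Figure D1:**
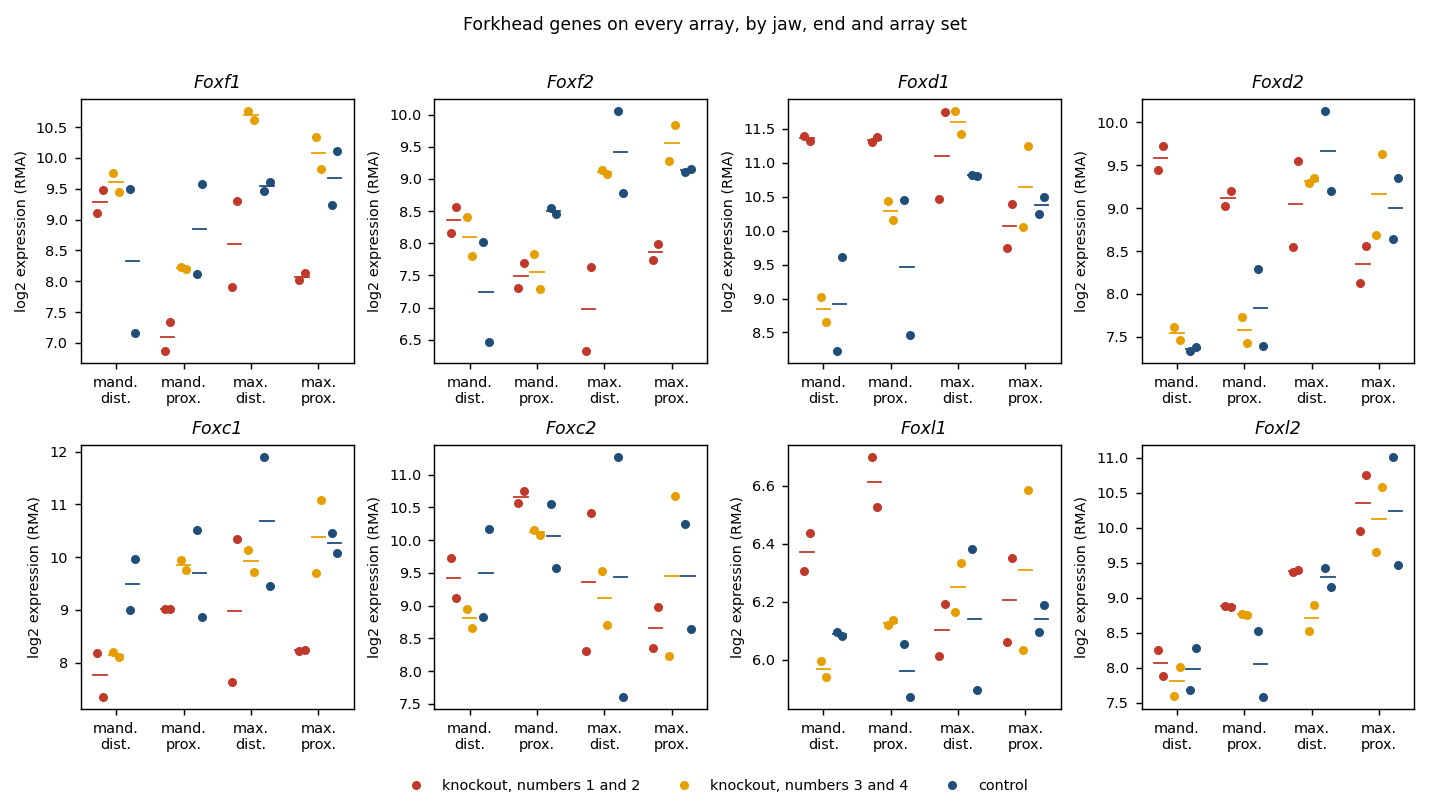
Level of each forkhead gene (log2 RMA value, vertical axis, scaled for each gene) on every array, by part (horizontal axis: mandible or maxilla, distal or proximal) and array set. Points are arrays and bars are the mean of 2 arrays; Foxd1 and Foxd2 in the mandible of knockouts 1 and 2 lie above all other mandible arrays.

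The first question was whether loss of Alk5 changed these genes over the jaw as a whole, taken as the mean of the 4 parts of each number. Over all 4 knockout and 2 control means, 0 of 8 genes passed an adjusted p of 0.05 (limma, Benjamini-Hochberg over all 13837 genes), where 0% of all genes did. At an unadjusted p under 0.05 there were 1 of the 8 and 965 of all genes. That gene was Foxd1, a gene of facial and kidney mesenchyme, with means of 10.73, 11.21, 10.32 and 10.37 in knockouts 1 to 4 and 9.94 and 9.85 in controls. All 4 knockout means of Foxd1 lay above both control means, a difference of 0.77 ± 0.27 (SE, limma adjusted p = 0.707). With 4 means against 2, or 2 against 2, groups often separate by chance. The share of all genes that separate was not counted, here or below. Foxc1, whose loss in mice impairs growth of the skull vault, averaged 8.27, 8.74, 9.50 and 9.66 in knockouts 1 to 4 and 10.47 and 9.59 in controls, a difference of -0.99 ± 0.47 (limma adjusted p = 0.707), and its groups overlapped. With the mean 3' excess of each number as a covariate the values were 0.53 for Foxd1 and -0.54 for Foxc1 (limma adjusted p = 0.125 and 0.271). That excess averaged 1.13 in knockouts 1 and 2, 0.08 in knockouts 3 and 4 and 0.18 in controls, so the covariate nearly marks the first set. The 2 values therefore rest largely on knockouts 3 and 4 against control and are not effects over all 4 knockouts. In bulk tissue, fewer cells of a type and less RNA per cell cannot be told apart.

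The array sets gave different answers. In knockouts 1 and 2 against control, 3 of the 8 genes were called, where 52.6% of all genes tested were called, so the share of these genes is below that of the array as a whole. Foxd1 was higher by 1.08 ± 0.17 (limma adjusted p = 0.00734). Foxc1 was lower by a difference of -1.53 ± 0.33 (adjusted p = 0.0177) and Foxf1, a Hedgehog-dependent gene of mesenchyme, by a difference of -0.83 ± 0.20 (adjusted p = 0.0248). The Foxf1 means were 7.97 and 8.56 in knockouts 1 and 2 and 9.08 and 9.11 in controls, with no overlap. Foxf2 (-0.90 ± 0.31, adjusted p = 0.0657) and Foxd2 (0.56 ± 0.19, adjusted p = 0.0617) missed the threshold, and Foxc2, Foxl1 and Foxl2 differed by -0.09, 0.24 and 0.28. Centring each array on its median moved all values of this comparison by 0.17 and brought the number called to 5, with 57.3% of all genes called. The call on Foxc1 was lost with the mean of both its probe sets (-1.03, limma adjusted p = 0.0590) and without knockout 1 or knockout 2 (adjusted p = 0.129 and 0.0683). The second Foxc1 probe set, which followed the first at r = 0.98 within array sets, averaged 8.80 in knockouts 1 and 2, 8.75 in knockouts 3 and 4 and 9.32 in controls. By that probe set, knockouts 1 and 2 therefore did not lie below knockouts 3 and 4, unlike by the brighter one. Markers of other cell types moved with this comparison. All 5 erythroid markers tested were called higher (median difference 1.73), 8 of 10 endothelium markers were called lower and 1 higher (median -0.64), and 3 of 6 facial mesenchyme markers were called lower (median -0.48). The mean level of the 6 erythroid markers measured was 11.33 to 12.01 in knockouts 1 and 2, 9.75 to 10.22 in knockouts 3 and 4 and 10.23 to 10.48 in controls. That of the endothelium list was 8.13 to 8.91 in knockouts 1 and 2, 9.01 to 9.58 in knockouts 3 and 4 and 9.19 to 9.48 in controls. That of the facial mesenchyme list overlapped between the sets, at 11.75 to 12.65 in knockouts 1 and 2, 12.24 to 12.64 in knockouts 3 and 4 and 11.74 to 12.75 in controls. Their part in the result was not tested.

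In knockouts 3 and 4 against the same controls, 0 of 8 genes were called (limma), where 1.56% of all genes were. Foxd1 was again above control, by 0.45 ± 0.06 (limma adjusted p = 0.0568), with no overlap of the means. Foxf1 averaged 9.77 and 9.52 in knockouts 3 and 4, above both controls by 0.55 ± 0.10 (adjusted p = 0.0804), so that its 2 knockout sets stood on opposite sides of control. Without control 2, 3 of the 8 genes were called in this comparison: Foxd1 at 0.41, Foxc1 at -0.89 and Foxc2 at -0.86 (limma adjusted p = 0.0425, 0.0208 and 0.0405), with 1378 of all genes called. The 2 comparisons share their control arrays.

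Set directly against each other, knockouts 1 and 2 differed from knockouts 3 and 4 in 5 of the 8 genes, where 64.9% of all genes were called. Foxf1 (-1.38 ± 0.20), Foxf2 (-0.91 ± 0.19) and Foxc1 (-1.08 ± 0.16) were lower in knockouts 1 and 2, and Foxd1 (0.63 ± 0.16) and Foxd2 (0.62 ± 0.16) were higher, with limma adjusted p between 0.00197 and 0.0162. Foxd1 and Foxd2 lost their calls without knockout 3 (adjusted p = 0.0607 and 0.0710). Foxd2 also lost its call with the mean of both its probe sets (0.22, limma adjusted p = 0.0881). The dimmer Foxd2 probe set went the opposite way, with a mean of 6.36 in knockouts 1 and 2 and 6.53 in knockouts 3 and 4. The 3' excess moves with these set differences, and its part in them was not tested.

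**Figure D2:**
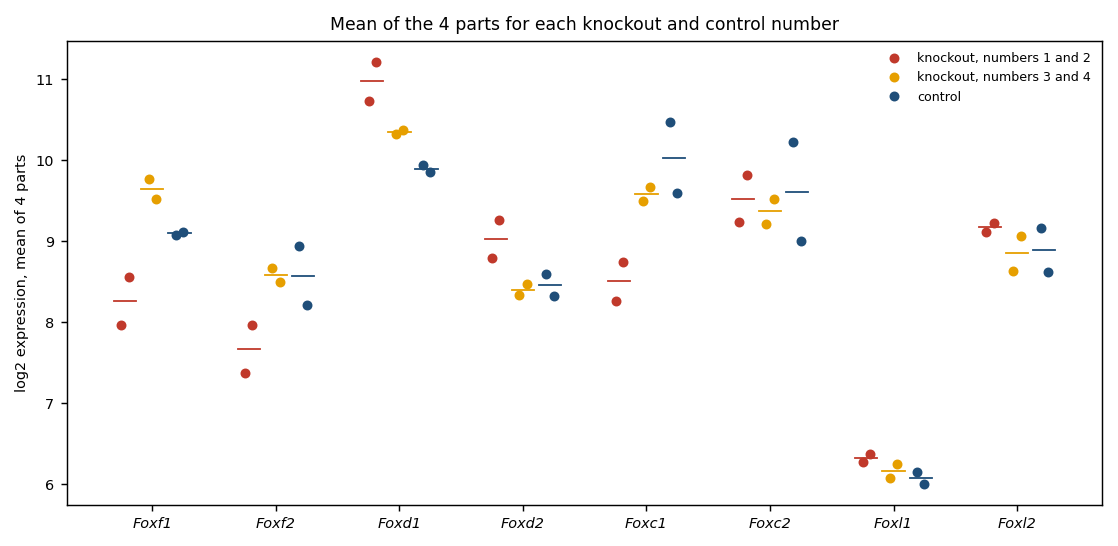
Mean log2 level over the 4 parts (vertical axis) for each forkhead gene, 1 point per number, in knockouts 1 and 2, knockouts 3 and 4, and controls, with bars for the mean of 2 numbers. Foxd1 lies above control in both knockout sets, and Foxf1 lies below control in one set and above it in the other.

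Within single parts no member was called in knockouts against controls, where 0.0145% of all genes were called in the distal mandible, 0% in the proximal mandible, 0.00723% in the distal maxilla and 0.00723% in the proximal maxilla (limma, 8 group means). Foxd2 in the distal mandible had 9.45, 9.73, 7.62 and 7.46 in knockouts 1 to 4 and 7.33 and 7.38 in controls. All 4 knockouts were above both controls, the first 2 far above and the others barely, a difference of 1.21 ± 0.63 (limma adjusted p = 0.516). Foxc1 in the same part had 8.19, 7.35, 8.20 and 8.10 in knockouts 1 to 4 and 9.001 and 9.97 in controls. Its groups did not overlap either, a difference of -1.52 ± 0.82 (limma adjusted p = 0.522). Nor did those of Foxf2 in the proximal mandible, with 7.30, 7.69, 7.83 and 7.29 in knockouts 1 to 4 and 8.55 and 8.46 in controls. Groups of 4 and 2 arrays often separate by chance, and these cases were picked from 8 genes in each of 4 parts. They are given as description only. Without control 2 the Foxc1 value was -1.04 and that of Foxd2 1.23, and no member was called in any part. Foxf2 in the distal maxilla had 6.32, 7.63, 9.13 and 9.08 in knockouts 1 to 4 and 10.06 and 8.78 in controls, a difference of -1.38 ± 0.68 (limma adjusted p = 0.903), with knockouts 1 and 2 below both other sets. The Foxf2 value was -2.02 without control 2 and -0.74 without control 1 (limma adjusted p = 0.737 and 0.999).

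The second question was how the genes differ between the jaws. In controls, 7 of the 8 genes had lower means in the mandible than in the maxilla, and 2 were called, where 0.687% of all genes were. The median difference of the 8 was -1.21, beside -0.0027 over all genes tested. Foxd2, a relative of Foxd1 in facial and kidney mesenchyme, had 7.33, 7.38, 8.29 and 7.39 on the control mandible arrays and 10.14, 9.20, 8.65 and 9.35 on the control maxilla arrays. The jaws did not overlap, and the difference was -1.74 ± 0.28 (limma adjusted p = 0.0117). Foxl2 had a lowest level of 7.58 and a highest of 8.52 in the control mandible, against 9.15 and 11.01 in the control maxilla, a difference of -1.75 ± 0.32 (limma adjusted p = 0.0198). Foxf2 (-1.40 ± 0.36, adjusted p = 0.0948), Foxd1 (-1.40 ± 0.41, adjusted p = 0.161) and Foxf1 (-1.02 ± 0.44, adjusted p = 0.386) had differences of similar size and missed the threshold. The Foxd2 call was lost in a fit that did not split the knockouts by array set (limma adjusted p = 0.313).

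In knockouts, 1 of the 8 genes was called between the jaws, where 7.71% of all genes were. That gene was Foxl2, with a lowest, median and highest level of 7.59, 8.50 and 8.88 in the mandible and 8.52, 9.53 and 10.75 in the maxilla, a difference of -1.26 ± 0.22 (limma adjusted p = 0.00330). It lost the call without knockout 2, 3 or 4, with differences of -1.11 to -1.38 and adjusted p of 0.0590 to 0.0901. Foxl2 was lower in the mandible within every number, by differences of -1.09, -1.70, -0.91 and -1.35 in knockouts 1 to 4 and -2.12 and -1.37 in controls. Neuron markers moved with it. The mean level of the 8 neuron markers was 6.31 ± 0.16 in the mandible and 9.11 ± 0.91 in the maxilla of knockouts 1 and 2 (SD, n = 4 each), 7.32 ± 0.18 and 8.58 ± 1.08 in those of knockouts 3 and 4, and 7.90 ± 0.60 and 9.37 ± 1.47 in those of controls. Across the 24 arrays with array set means removed, Foxl2 correlated with the neuron list at r = 0.77 and with the 3 glial and migrating neural crest markers at r = 0.76, and their part in the result was not tested.

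The jaw differences of Foxf2, Foxd1 and Foxd2 differed in sign between the knockout sets, and so did that of Foxl1, which lies near the filter level. In knockouts 1 and 2, Foxd2 had 9.45, 9.73, 9.03 and 9.20 in the mandible, against 8.55, 9.55, 8.12 and 8.56 in the maxilla. In knockouts 3 and 4 it had 7.62, 7.46, 7.73 and 7.43 in the mandible, against 9.29, 9.35, 8.69 and 9.63 in the maxilla. In the first set the mandible arrays lay mostly above the maxilla arrays and overlapped them, and in the second they lay below them without overlap. The Foxd2 difference was 0.65 ± 0.28 in knockouts 1 and 2 (limma adjusted p = 0.171) and -1.68 ± 0.28 in knockouts 3 and 4 (adjusted p = 0.0118), where 6.27% and 0.658% of all genes were called within those sets. The call in knockouts 3 and 4 was lost without knockout 3 or knockout 4 (adjusted p = 0.355 and 0.760).

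Foxd1 had 11.40, 11.33, 11.31 and 11.38 in the mandible of knockouts 1 and 2, where the 4 arrays spread by less than in any other set and jaw (SD 0.04), and between 9.75 and 11.75 in their maxilla. In knockouts 3 and 4 Foxd1 was between 8.66 and 10.43 in the mandible, against 10.06 and 11.77 as the ends of its range in the maxilla. Its jaw difference was 0.76 ± 0.41 in the first set and -1.55 ± 0.41 in the second (limma adjusted p = 0.276 and 0.119). The jaw difference of Foxf2 was 0.51 ± 0.36 and -1.50 ± 0.36 (adjusted p = 0.406 and 0.0773), and that of Foxf1 was -0.14 ± 0.44 and -1.48 ± 0.44 (adjusted p = 0.878 and 0.177). By these estimates, in each of the 4 genes the mandible of knockouts 1 and 2 came out higher relative to the maxilla than in knockouts 3 and 4 or in controls. The order was not particular to these genes. Foxc1 had -0.21 in knockouts 1 and 2, -1.15 in knockouts 3 and 4 and -0.88 in controls. In the same order Foxc2 had 1.03, 0.18 and 0.34, and Foxl1 had 0.34, -0.23 and -0.115. Foxl2 alone went otherwise, with -1.40, -1.13 and -1.75.

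The difference between the sets was tested itself, in comparisons added once the data had been seen. Foxd2 was the 1 member called, with a jaw difference in knockouts 1 and 2 that exceeded that in knockouts 3 and 4 by 2.34 ± 0.40 (limma adjusted p = 0.0399, where 0.094% of all genes were called) and that in controls by 2.39 ± 0.40 (adjusted p = 0.0298, where 0.137% were). Foxd1 (2.32 ± 0.58, adjusted p = 0.262) and Foxf2 (2.01 ± 0.50, adjusted p = 0.258) had excesses over knockouts 3 and 4 of similar size that were not called. For knockouts 3 and 4 against controls, 0 of 8 genes and 0% of all genes were called (limma), with 0 of the 8 at an unadjusted p under 0.05, and the Foxd2 value was 0.06 ± 0.40. The Foxd2 calls were lost when both its probe sets were averaged (1.49 and 1.40, adjusted p = 0.0771 and 0.0735). The fit counts the distal and proximal arrays of a number as separate arrays. With each number as a block within its genotype, both calls were lost too (limma adjusted p = 0.0748 and 0.0505). The dimmer Foxd2 probe set, with a mean of 6.47, had jaw differences of -0.04 in knockouts 1 and 2, -0.68 in knockouts 3 and 4 and -0.45 in controls, the same order at smaller size. The call against knockouts 3 and 4 was also lost without knockout 2, 3 or 4, and that against controls without knockout 2 (adjusted p = 0.169). Pooled over all 4 knockouts, the jaw difference was not called to differ from that in controls in any of the 8 genes, where 0% of all genes were called (limma). The value for Foxd2 was 1.22 ± 0.34 (adjusted p = 0.867). Tissue markers differed by jaw between the sets too. The mean of the facial mesenchyme list was 11.88 in the mandible and 12.38 in the maxilla of knockouts 1 and 2. It was 12.46 and 12.53 in knockouts 3 and 4 and 12.54 and 12.37 in controls, and its part in the Foxd2 result was not tested.

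**Figure D3:**
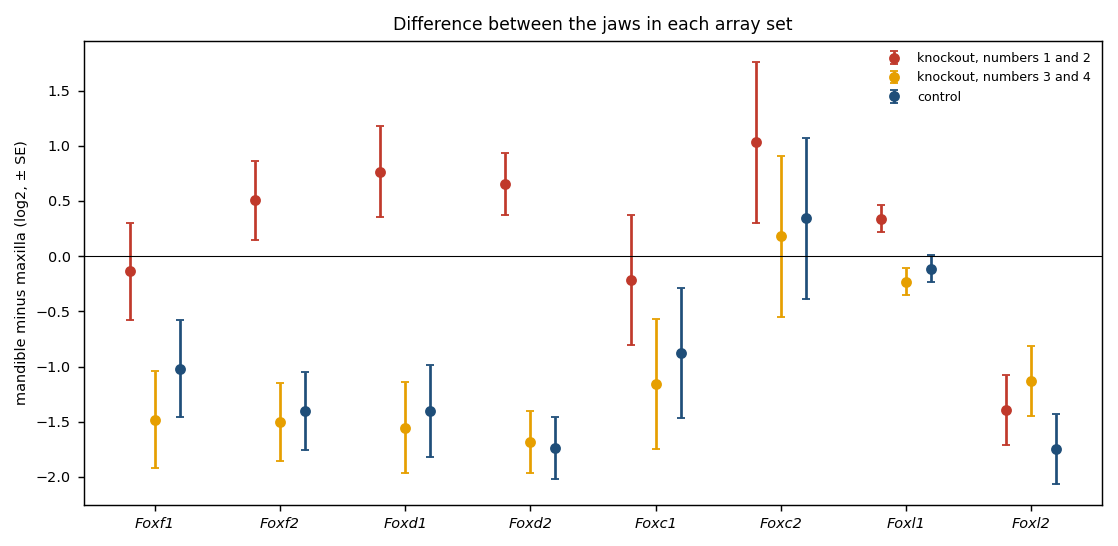
Mandible minus maxilla (log2, vertical axis) for each forkhead gene in knockouts 1 and 2, knockouts 3 and 4, and controls; points are limma estimates from 4 arrays per jaw and bars are their SE. Foxf2, Foxd1 and Foxd2 lie above 0 in knockouts 1 and 2 and below -1 in both other sets, while Foxl2 lies below -1 in all 3.

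Genes of the Hedgehog pathway were set beside these values. Shh, the ligand made by the facial epithelium, had jaw differences of 0.30 ± 0.41, -0.97 ± 0.41 and -1.17 ± 0.41 in knockouts 1 and 2, knockouts 3 and 4 and controls. Ptch1, the Hedgehog receptor and a target of its own pathway, had 0.39 ± 0.25, -0.89 ± 0.25 and -0.49 ± 0.25, and Gli1, a transcriptional effector and target, had 0.40 ± 0.33, -0.80 ± 0.33 and -0.37 ± 0.33. None of these was called, and their signs ran as those of Foxd1, Foxd2, Foxf2 and Foxl1 did. Cdon, a Hedgehog co-receptor, was the 1 gene of the 15 on the pathway list whose jaw difference in knockouts 1 and 2 was called to differ from that in the other sets, by -1.05 ± 0.16 from knockouts 3 and 4 and by -0.99 ± 0.16 from controls (limma adjusted p = 0.0342 and 0.0298), the opposite direction to Foxd2. Against control over all parts, the list had 3 of 15 genes called higher and 6 called lower in knockouts 1 and 2, with a median difference of -0.08, beside 52.6% called and a median of -0.06 over all genes tested. The list genes called included Gli1 (0.84 ± 0.17), Hhip, a Hedgehog-binding inhibitor (-2.12 ± 0.21), and Fgf18, a growth factor that Foxf genes are known to restrain in the mouse palate (-2.03 ± 0.10). In knockouts 3 and 4 the list had 1 called lower, Fgf18 (-0.99 ± 0.07, limma adjusted p = 0.0352). Fgf18 averaged 7.01, 7.22, 8.21 and 8.11 in knockouts 1 to 4 and 9.19 and 9.10 in controls, and was below control in every knockout number.

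The third question was how the genes differ between the ends. In the knockout mandible, 0 of 8 genes were called (limma), where 1.09% of all genes were. Foxf1 had 9.11, 9.48, 9.75 and 9.45 at the distal end of knockouts 1 to 4, against 6.86, 7.34, 8.22 and 8.20 at the proximal end. The ends did not overlap, and the difference was 1.79 ± 0.44 (limma adjusted p = 0.0752). Control 1 had 9.50 distally and 8.11 proximally, the same direction, and the library labelled control 2 had 7.15 and 9.58, the opposite one. Foxc1 had 8.19, 7.35, 8.20 and 8.10 distally, against 9.02, 9.03, 9.95 and 9.76 proximally, a difference of -1.48 ± 0.59 (adjusted p = 0.357). Its difference was -1.52 in control 1 and 1.09 in control 2. Foxc2, its close relative, was lower distally in all 4 knockouts too, by differences of -0.84, -1.63, -1.21 and -1.42, and by -1.73 in control 1 but 0.59 in control 2. Foxl2 was lower distally, a difference of -0.88 ± 0.32 (adjusted p = 0.287), with -0.84 in control 1 and 0.71 in control 2. In the knockout mandible the mean of Foxf1 was thus higher at the end where the means of Foxc1, Foxc2 and Foxl2 were lower. Foxf2 went otherwise, with distal minus proximal differences of 0.85, 0.87, 0.58 and 0.51 in knockouts 1 to 4 and -0.52 and -2.001 in controls 1 and 2. For Foxl1 these were between -0.39 and -0.09 in knockouts and 0.04 and 0.21 in controls. Foxd1 differed between the ends by 0.09 and -0.05 in knockouts 1 and 2, by -1.42 and -1.50 in knockouts 3 and 4, by -2.23 in control 1 and by 1.15 in control 2.

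In the knockout maxilla, 0 of 8 genes were called (limma), where 0.065% of all genes were. Foxl2 had 9.36, 9.40, 8.52 and 8.90 at the distal end, against 9.96, 10.75, 9.66 and 10.58 at the proximal end, without overlap, a difference of -1.19 ± 0.32 (adjusted p = 0.357). Control 1 had 9.43 and 11.01 and control 2 had 9.15 and 9.46, so Foxl2 was lower distally in the maxilla of all 6 numbers. In controls, 0 of 8 genes and 0% of all genes were called between the ends of either jaw (limma). The end difference over both jaws was not called to differ between knockouts and controls in any of the 8, where 0.00723% of all genes were called. For Foxf1 it was called without control 1, when control 2 alone stood for the controls (2.64, limma adjusted p = 0.0103).

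**Figure D4:**
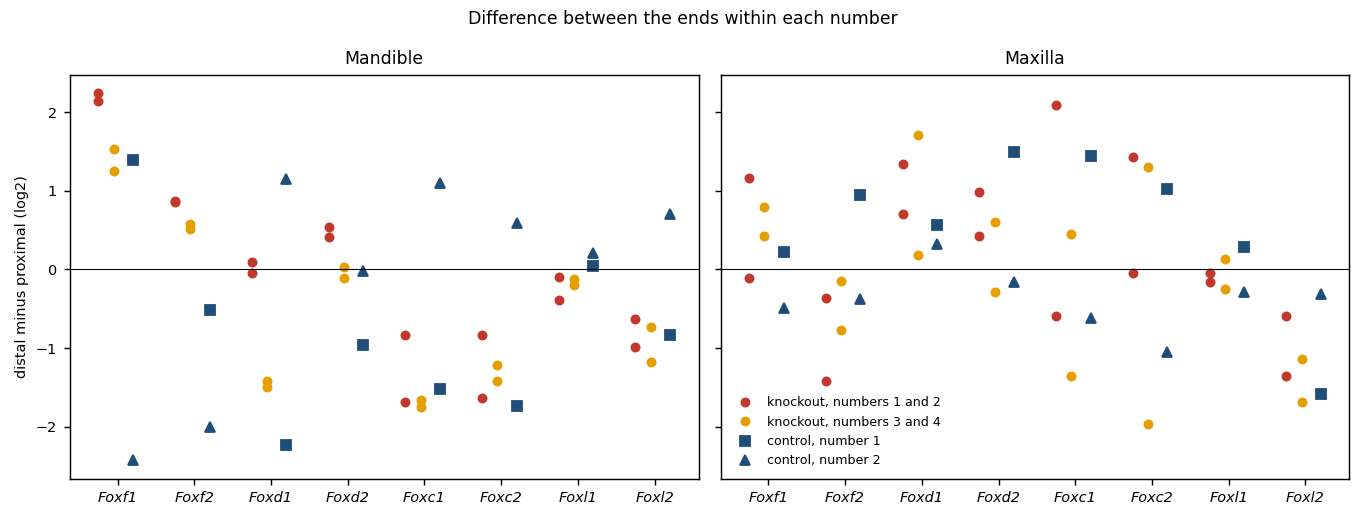
Distal minus proximal (log2, vertical axis) for each forkhead gene within each knockout and control number, in the mandible (left) and the maxilla (right). In the mandible control 1 (squares) lies on the side of the knockouts for Foxf1, Foxc1, Foxc2 and Foxl2, and control 2 (triangles) on the opposite side, while for Foxf2 both controls lie below 0 and all 4 knockouts above it.

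The genes whose levels followed each member most closely were found by Pearson's r over the 24 arrays with array set means removed. The arrays share their dissection, and r is given as a description. Foxf1 was most like Fendrr, a long non-coding RNA that is its neighbour on chromosome 8, at r = 0.90 (Spearman's rho 0.88, and r = 0.89 without the 2 arrays farthest from the median), followed by Ankrd6 at 0.86 and Alx1 at 0.84. Within the sets, r with Fendrr was 0.90 in knockouts 1 and 2, 0.96 in knockouts 3 and 4 and 0.94 in controls (n = 8 each). Foxl2 was most like Foxl2os, a long non-coding RNA beside it on chromosome 9, at r = 0.96 (rho 0.98), followed by Prss12 at 0.90 and Map2, a neuronal cytoskeleton gene, at 0.89. Foxl2os was lower in the mandible as Foxl2 was, with differences of -1.71 ± 0.30 in knockouts and -2.26 ± 0.43 in controls (limma adjusted p = 0.00330 and 0.0240).

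Not every neighbour moved this way. Foxf2 and Foxc1 lie near each other on chromosome 13, 3 genes apart, and had r = 0.37, while Foxc2 and Foxl1, next to each other on chromosome 8, had r = 0.61 with Foxl1 close to the filter level. Foxd1 and Foxd2, on different chromosomes, had r = 0.85, and Foxd2 and Foxf2 had r = 0.79. Foxd2 was most like Cdh10, a cadherin, at 0.91. Foxc2 was most like Cthrc1, Col9a1 and Rflna at 0.90, 0.87 and 0.86, of which Col9a1 encodes a cartilage collagen. Foxc1 was most like Txndc16, Fam214a and Cep19 at 0.88, 0.87 and 0.86, and it correlated with the macrophage marker list at 0.72. Foxf1 correlated with Ptch1 at 0.83, Gli1 at 0.80 and Shh at 0.79, and with the epithelium marker list at 0.61, and the part of cell make-up in these was not tested.

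Foxf1 and Fendrr parted between the array sets although they kept together within them. Fendrr averaged 8.83 and 9.14 in knockouts 1 and 2, 8.09 and 7.66 in knockouts 3 and 4 and 7.54 and 7.61 in controls. It was higher in knockouts 1 and 2 than in controls by 1.41 ± 0.12 (limma adjusted p = 0.00199), the set in which Foxf1 was lower by a difference of -0.83. The highest Fendrr levels, 10.59 and 11.58, were in the distal mandible of knockouts 1 and 2, against 7.98 and 8.02 in that of knockouts 3 and 4 and 8.21 and 6.07 in that of controls. Between the ends of the knockout mandible Fendrr was called, higher distally by 2.72 ± 0.45 (limma adjusted p = 0.00919), in the direction of Foxf1.

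**Figure D5:**
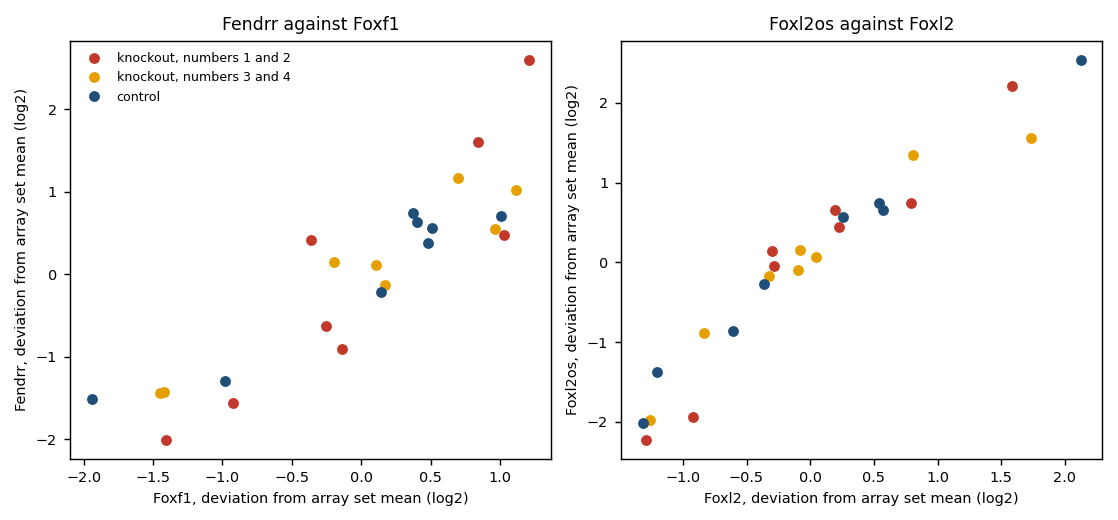
Deviation from the array set mean (log2) of Fendrr against Foxf1 (left) and of Foxl2os against Foxl2 (right), 1 point per array, coloured by array set. Both pairs rise together in all 3 sets, with r = 0.90 and r = 0.96 over 24 arrays.

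The other forkhead genes on the array, 29 in number of which 21 were tested, were used for comparison. In knockouts 1 and 2 against control 6 were called higher and 4 lower, where 52.6% of all genes were called, with a median difference of 0.10, beside 0.08 for the 8 genes and -0.06 over all genes tested. In knockouts 3 and 4, where 1.56% of all genes were called, the 2 called were Foxo1 (-0.54 ± 0.05) and Foxp4 (-1.21 ± 0.13), both lower (limma adjusted p = 0.0486 each). Foxp4, a transcriptional repressor, was called higher in knockouts 1 and 2 (0.50 ± 0.13, adjusted p = 0.0283). Between the jaws in controls, 0 of the 21 were called and their median difference was -0.0012, beside -1.21 for the 8 genes. Foxa2, an endoderm forkhead, was higher in the mandible of knockouts (0.88 ± 0.15, limma adjusted p = 0.00289), the opposite direction to Foxl2. Within the sets it was called in knockouts 1 and 2 (1.67 ± 0.21, adjusted p = 0.000435) but not in knockouts 3 and 4. In the mandible of knockouts 1 and 2 it was higher distally (1.75 ± 0.30, adjusted p = 0.0114).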

How the data were processed

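RNA from the 4 jaw parts was labelled and hybridised to Affymetrix Mouse430_2 arrays, 16 knockout and 8 control. The authors deposited log2 values, summarised to probe sets by RMA, per the submitters' processing notes. The RMA version is not given in the sources used here. Of 45101 probe sets, 34945 carry 1 gene symbol in the platform annotation. The probe set with the highest mean stood for a gene. Genes above the 40th percentile of all values (log2 6.07) on at least 2 arrays were tested. Limma 3.58.1 in R 4.3.3 (lmFit, eBayes) was used, 2-sided, with Benjamini-Hochberg adjustment over 13837 genes and a threshold of 0.05; it was tested on simulated data. Knockout against control used the mean of the 4 parts of each number, single parts used 8 group means, and jaws and ends used 12 means (part by array set).

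The 8 genes and all lists were chosen with earlier results of these data known. Comparisons of jaws and ends within 1 knockout set, between the knockout sets, and of jaw differences between sets were added once the data had been seen. The genes named as most alike are the 3 with the highest r for each member, and genes of the other lists were named where called, or where they are a neighbour, a Hedgehog gene or Fgf18. Alternatives covered centring, the filter, averaged probe sets, the replicate block, 3' excess as a covariate and leaving out each number. Same-numbered arrays did not deviate together in all sets, so numbers were not used as pairs.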

Additional observations from a re-analysis of the deposited data

Results flagged for a closer look

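Foxc1 in the distal mandible of knockout 2 was 7.346 (log2), apart from the other 3 knockouts at 8.10 to 8.20, a gap of 0.882 of the group's range. It was the 1 group of the 32 examined in which an array stood so far from the rest; chance alone gives such a gap in about 1 group in 20.

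The jaw difference of Foxd2 differed between groups by a test of the difference itself. It was larger in knockouts 1 and 2 than in knockouts 3 and 4 by 2.3358 and larger than in controls by 2.3908, on the log2 scale (limma adjusted p = 0.0399 and 0.0298). Both calls were lost when both probe sets were averaged (adjusted p = 0.0771 and 0.0735) and without knockout 2 (0.205 and 0.169). They were also lost with each number as a block within its genotype (limma adjusted p = 0.0748 and 0.0505). By number, the mandible minus maxilla difference was 0.90 and 0.41 in knockouts 1 and 2, -1.31 and -2.05 in knockouts 3 and 4, and -1.58 and -1.89 in controls. The 3' excess of the control transcripts in knockouts 1 and 2 was 1.13 ± 0.28, against 0.08 ± 0.06 in knockouts 3 and 4 and 0.18 ± 0.04 in controls (SD, n = 8 each); its part in the result was not tested.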

How the results depend on the processing

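Counts of the 8 genes called were recomputed under each alternative. Of 168 recomputed counts 147 stayed within 1.5 times the main count, and of 1632 recomputed values for single genes 1591 kept their side of the threshold. Most counts were 0 and most values were not called in the main fit, so these totals say little about how firm the calls are. Of the values that changed sides, 23 lost a call and 18 gained one. No called value changed sign. With each array centred on its median, 5 genes in place of 3 were called in knockouts 1 and 2 against control, and the split over all genes became 4644 higher and 3280 lower, against 2897 and 4382. With the mean of all probe sets, 0 in place of 1 were called for the jaw difference of knockouts 1 and 2 against that of knockouts 3 and 4 and against that of controls. In a fit of 8 group means, 1 in place of 2 was called between the jaws in controls. Leaving out 1 number gave 2 to 5 called in knockouts 1 and 2 against control, 0 to 3 in knockouts 3 and 4 against control, 3 to 6 between the knockout sets, 0 to 1 between the jaws in knockouts, 0 to 1 for both tests of the Foxd2 jaw difference and 0 to 1 for the end difference in knockouts against controls.

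With the replicate block, 3 of the 8 genes were called over all parts (Foxd1, Foxf1 and Foxc1), 1 in each of the distal mandible, proximal mandible and distal maxilla, and 0 for both jaw-difference tests (limma adjusted p = 0.0748 and 0.0505 for Foxd2). Over all parts and in single parts, the block sets knockouts 1 and 2 against controls 1 and 2 by construction. There it called 6393 genes over all parts and 4987 to 6709 in single parts. For the jaw-difference tests the block was each number within its genotype, which sets no knockout against a control of the same number. There it called 6 genes in place of 13 for the jaw difference between the knockout sets. Same-numbered parts correlated at -0.68 to 0.58 in controls, -0.31 to 0.22 in knockouts 1 and 2 and 0.07 to 0.35 in knockouts 3 and 4, a mixed pattern, and the controls' negative values all involve the distal mandible. Since not every correlation was positive and the labels name no shared embryo or litter, the numbers were not used as pairs. No paired analysis was possible for knockouts 3 and 4 against control, or between the knockout sets, because they share no numbers.

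Counts over all genes moved by more than 1.5 times as follows. Over all parts, 679 genes were called with 3' excess as a covariate in place of 0. In a fit of 8 group means the counts were 326 in place of 1067 for the jaws in knockouts, 25 in place of 95 in controls, 8 in place of 151 for the ends of the knockout mandible, 1 in place of 9 for those of the knockout maxilla and 0 in place of 1 for the end difference between genotypes. With centring, 83 in place of 216 were called in knockouts 3 and 4 against control. With the mean of all probe sets, the counts were 7 in place of 2 in the distal mandible, 11 in place of 0 in the proximal mandible, 10 in place of 19 for the jaw difference of knockouts 1 and 2 against that of controls and 2 in place of 1 for the end difference, and counts of 0 or 1 in the other parts moved by 1. Leaving out 1 number gave 0 to 1378 for knockouts 3 and 4 against control (216), 4038 to 6579 for knockouts 1 and 2 (7279), 150 to 1548 for the jaws in knockouts (1067), 263 to 395 in controls (95), 0 to 551 and 12 to 711 for the Foxd2 tests (13 and 19), 0 to 107 and 0 to 30 for the other jaw-difference tests (0 each), 0 to 37 in single parts, 10 to 155 and 1 to 1168 for the knockout ends (151 and 9), 0 to 327 for the control ends (0) and 0 to 264 for the end difference (1). The causes were not tested. Foxl1 near the filter level, 2 arrays per control part and the confounding of set with genotype limit these values.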
